A study of Mus musculus with 2 samples.

Results

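The genes described here belong to the autophagy and lysosome families of the mouse. They were taken as the protein-coding genes on chromosomes 1 to 19 of the mm10 genome whose symbols begin with Atg, Ulk or Lamp and a digit, with Gabarap, Map1lc3, Wipi or Atp6v, or with Cts and 1 letter, plus Becn1, Sqstm1 and Tfeb. This gave 75 of 20665 protein-coding genes. From general knowledge of mouse tissues, 50 were classed as broadly expressed, 20 as limited to certain tissues or cell types and 4 as mixed, and Atp6v1fnb, a gene named for its place beside Atp6v1f, was not classed. The same symbol rule finds 3 genes on the X chromosome (Lamp2, Tfe3 and Atg4a), which are given once at the end and are in no count.

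Chromatin immunoprecipitation with sequencing mapped the histone H3 mark H3R17me2a, asymmetric dimethylation of an arginine in the tail of histone H3, in wild-type mouse hearts at 21 days after birth. The mark is written by the arginine methyltransferase Carm1, and the study concerns its part in the maturation of the heart. There are 2 samples, both in 1 group with no other genotype, treatment or time, and each has 1 deposited list of peaks, called list 1 and list 2 below. The labels conflict: the tissue label and the protocol name heart tissue while the source label names cardiac fibroblasts, the study design calls the hearts neonatal, the titles carry the name carm1 although the genotype is wild type, and the protocol names the antibody target without the letter for the asymmetric form.

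Whether 2 animals or 1 were used is not stated in the labels. The lists hold 21496 and 38012 peaks on the autosomes, X and Y. Of the 20878 list 1 peaks that overlapped a list 2 peak, 42.3% had their summit, the highest point of the peak, on the same base in both lists. The lists were therefore read as 2 peak calls that may rest largely on the same reads, and no test between groups was possible. The protocol describes homogenised tissue, in which fewer cells of a type and less mark per cell cannot be told apart.

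Marker genes were scored first to check the labelled tissue. A gene is called marked below if both lists had a peak within 1000 bp of one of its ends, on either side. By this measure 40.1% of all protein-coding genes (8284 of 20665) were marked. Of the cardiomyocyte markers 8 of 10 were marked, among them the sarcomere genes Actc1, Tnni3 and Myl2. None of 8 fibroblast markers was marked, although Col1a1 had a gene-end peak in list 2. Among the other cell types, 0 of 6 endothelial markers, 1 of 7 macrophage markers (Cd68) and 1 of 6 lymphocyte and neutrophil markers (Cd79a) were marked.

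Autophagy encloses worn proteins and organelles in a growing double membrane, the autophagosome, and delivers them to the lysosome. A kinase complex starts the process, a lipid kinase complex and membrane carriers build the membrane, and a conjugation system attaches the small Atg8 proteins (LC3 and GABARAP) to it. In the lysosome the vacuolar proton pump (V-ATPase) acidifies the lumen, where cathepsins cut the cargo. In the heart this pathway removes damaged mitochondria and aggregated protein, and loss of the membrane protein Lamp2 causes a cardiomyopathy with stored autophagic material. Tfeb and its relatives switch many lysosome genes on through a short promoter element built around CACGTG.

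The promoters of 3 lysosome genes show that element. Each sequence is the 200 bases before a RefSeq transcript start (GRCm38.p6, the coordinates of mm10), written 5′ to 3′ on the gene's strand, with every CACGTG in capitals. Lamp1, a glycoprotein that lines the lysosomal membrane, is at chr8:13158961-13159160 on the plus strand. Ctsd, the aspartic protease cathepsin D, is at chr7:142387828-142388027 on the minus strand, and Atp6v0b, a subunit of the ring that carries protons through the membrane, is at chr4:117887330-117887529 on the minus strand.
Lamp1: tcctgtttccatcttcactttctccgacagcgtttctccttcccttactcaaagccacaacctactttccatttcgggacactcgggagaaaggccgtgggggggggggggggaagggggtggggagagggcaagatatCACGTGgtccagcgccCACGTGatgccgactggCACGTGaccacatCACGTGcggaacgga
Ctsd: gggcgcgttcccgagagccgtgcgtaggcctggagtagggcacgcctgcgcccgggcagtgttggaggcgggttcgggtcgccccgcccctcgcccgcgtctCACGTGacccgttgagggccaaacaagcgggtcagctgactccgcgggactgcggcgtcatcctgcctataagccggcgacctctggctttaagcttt
Atp6v0b: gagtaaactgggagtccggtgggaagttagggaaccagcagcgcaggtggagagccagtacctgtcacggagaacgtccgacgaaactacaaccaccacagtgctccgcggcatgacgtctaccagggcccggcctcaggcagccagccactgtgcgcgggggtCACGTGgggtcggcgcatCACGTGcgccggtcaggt
The Lamp1 stretch holds 4 such sites, that of Atp6v0b 2 and that of Ctsd 1, with another CACGTG further upstream in the 250 bases examined. All of these sites lay inside a peak of both lists.

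Another feature that differs among the families is the CG dinucleotide, which is methylated and scarce in most of the genome but frequent at the promoters of many broadly expressed genes. The 150 bases before the start of 3 pairs of genes are shown with every CG in capitals: 2 subunit E isoforms of the V-ATPase, the broadly expressed Atp6v1e1 (chr6:120822699-120822848, minus strand) and the testis form Atp6v1e2 (chr17:86947888-86948037, minus strand); Map1lc3b, which encodes the LC3 protein used to count autophagosomes (chr8:121590288-121590437, plus strand), beside the placental cathepsin gene Ctsj (chr13:61005926-61006075, minus strand); and Lamp3 of the lung epithelium (chr16:19706366-19706515, minus strand) beside Ctsk of osteoclasts (chr3:95499060-95499209, plus strand).
Atp6v1e1: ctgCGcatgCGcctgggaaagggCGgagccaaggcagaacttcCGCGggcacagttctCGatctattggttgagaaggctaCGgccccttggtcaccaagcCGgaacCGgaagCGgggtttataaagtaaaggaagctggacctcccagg
Atp6v1e2: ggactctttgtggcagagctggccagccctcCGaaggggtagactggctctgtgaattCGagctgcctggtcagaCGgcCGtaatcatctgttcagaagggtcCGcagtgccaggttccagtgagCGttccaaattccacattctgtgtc
Map1lc3b: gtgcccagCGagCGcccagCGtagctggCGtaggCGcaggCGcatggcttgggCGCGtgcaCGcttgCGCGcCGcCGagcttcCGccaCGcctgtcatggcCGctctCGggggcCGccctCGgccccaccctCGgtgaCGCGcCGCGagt
Ctsj: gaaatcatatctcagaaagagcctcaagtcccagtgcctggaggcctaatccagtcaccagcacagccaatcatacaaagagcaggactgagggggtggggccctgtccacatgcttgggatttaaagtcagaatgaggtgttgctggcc
Lamp3: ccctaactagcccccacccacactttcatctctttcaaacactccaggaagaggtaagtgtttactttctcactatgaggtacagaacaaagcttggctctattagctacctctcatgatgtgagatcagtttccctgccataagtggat
Ctsk: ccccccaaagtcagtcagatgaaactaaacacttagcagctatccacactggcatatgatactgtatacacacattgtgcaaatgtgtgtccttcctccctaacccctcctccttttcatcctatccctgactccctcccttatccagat
These windows hold 24 CG in Map1lc3b, 10 in Atp6v1e1, 6 in Atp6v1e2 and 0 in Ctsj, Lamp3 and Ctsk. Map1lc3b and Atp6v1e1 were marked in both lists, and the other 4 genes had no peak at either end or inside.

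Most broadly expressed members and few tissue-limited ones had the mark at a gene end. Of all protein-coding genes 40.1% (8284 of 20665) were marked, and of the 75 members 48 (64.0%) were. Among the broadly expressed members 44 of 50 (88.0%) were marked, against 3 of 20 (15.0%) of the tissue-limited and 1 of 4 of the mixed members. The breadth classes were assigned from general knowledge, without an expression table and with earlier results of these data known, so the split is a description. No genome-wide set of broadly expressed genes was scored beside the members, and nothing here shows the split to be particular to these families. In list 1 alone 48 members had a gene-end peak, where 40.6% of all genes did, and in list 2 alone 52 did, where 47.7% of all genes did. With both lists held to the same minimum, a −log10 p of 5, 44 members (58.7%) and 34.2% of all genes were marked. Among the upper 50% of peaks by fold in each list, 18 members (24.0%) and 12.6% of all genes were marked, and all 18 were broadly expressed. The order of the classes under every setting tried is shown in the plot of shares by setting.

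**Figure D1:**
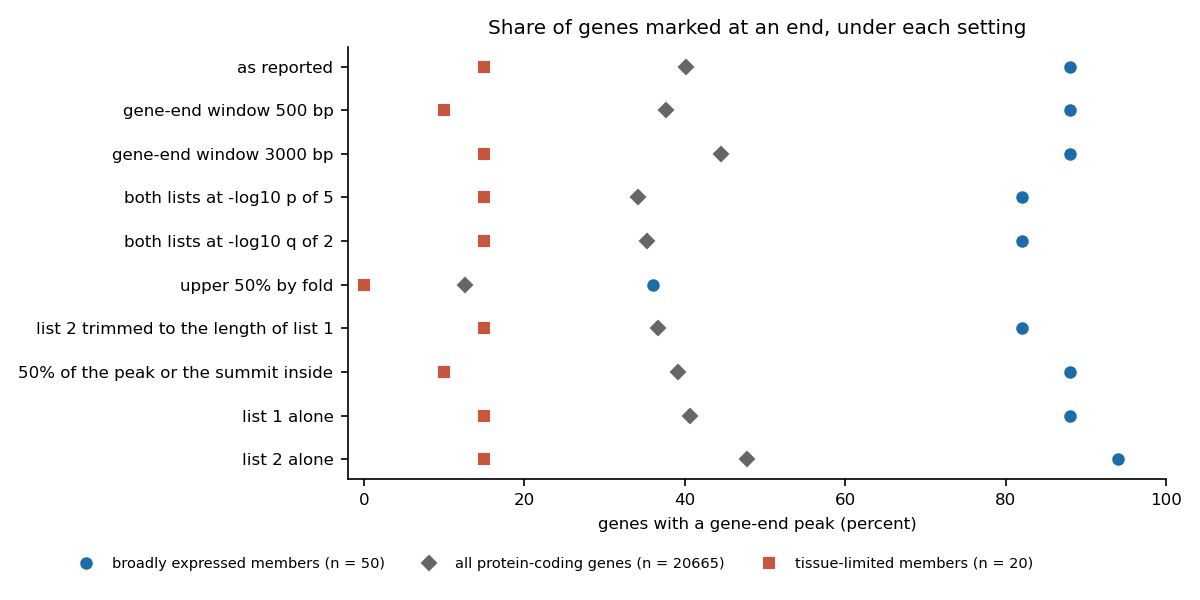
Share of genes with a gene-end peak (horizontal axis, percent) under the setting reported and 9 alternatives (vertical axis), for the 50 broadly expressed members, the 20 tissue-limited members and all 20665 protein-coding genes. Broad members lie between 36.0% and 94.0%, above all genes in every row, and tissue-limited members between 0.0% and 15.0%, below them.

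Peaks that touched the gene spans were mostly those at the ends. A peak shared by both lists overlapped the body of 49 members (65.3%), where 44.6% of all genes had one, and this count includes gene-end peaks that reach into the span. It was 45 of 50 for the broadly expressed members and 2 of 20 for the tissue-limited ones. A shared peak inside the span and away from both ends was found in 10 members (13.3%) and in 16.1% of all genes (3328 of 20665), a share no higher in the members. The broadly expressed members are the longer genes, with a median span of 23357 bp against 12951.5 bp, and a longer span has more room for a peak. No peak of either list touched the span or the end windows of 21 members (28.0%), 17 of them tissue-limited, where 42.3% of all genes (8732) had none.

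The strength of the member peaks was close to that of other marked genes. Fold enrichment is a value of the authors, read here as the ratio of immunoprecipitated signal to background at the summit. The strongest gene-end peak stands for a gene. The 48 marked members had a median fold of 4.79 in list 1 and 4.09 in list 2, beside 4.15 and 3.88 over all 8284 marked genes. The cardiomyocyte markers that were marked had medians of 9.27 and 6.58. Member peaks were 539 bp wide at the median in list 1 and 692.5 bp in list 2, where all marked genes had 528 and 685 bp and the cardiomyocyte markers 2905.5 and 2973.5 bp. At the median, the member peaks were thus narrower and lower than those of the marked cardiomyocyte markers and close to those of marked genes in general.

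**Figure D2:**
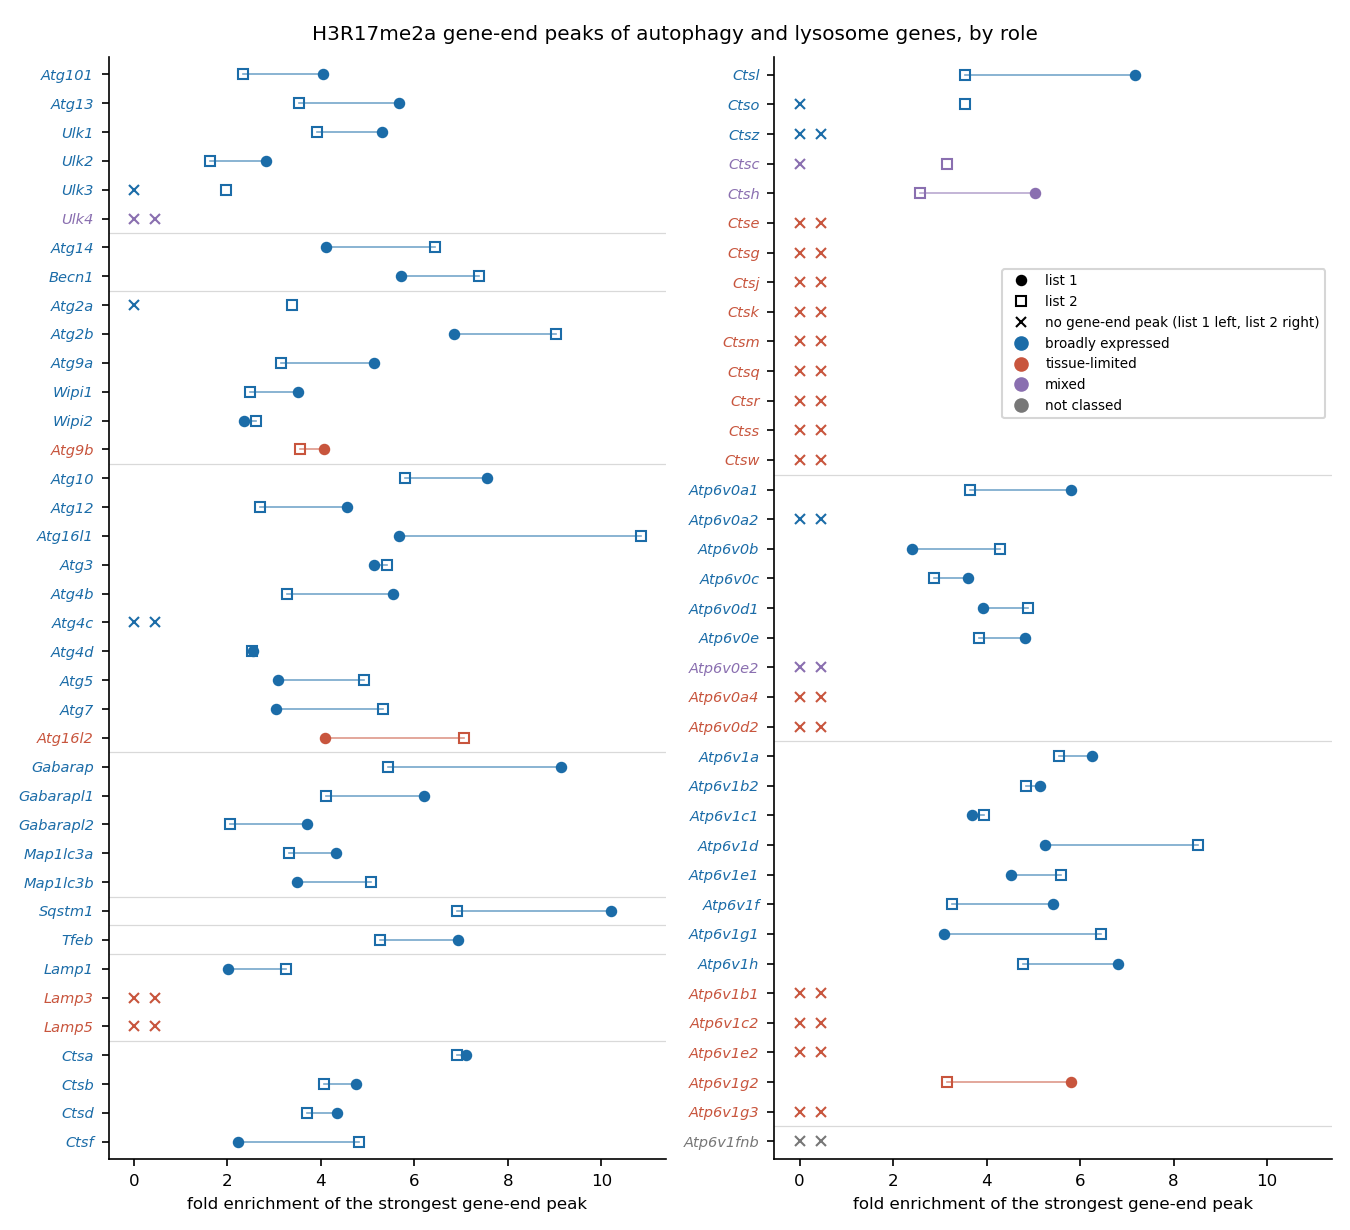
Fold enrichment of the strongest gene-end peak (horizontal axis, ratio to background) of each of the 75 members (vertical axis, ordered by role, with lines between roles) in list 1 (filled circles) and list 2 (open squares), with crosses near 0 for a gene without such a peak in list 1 (left) or list 2 (right). The crosses gather among the tissue-limited cathepsin and V-ATPase genes, and the highest values are those of Atg16l1 in list 2 (10.8) and Sqstm1 in list 1 (10.2).

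The initiation kinase complex senses starvation and energy loss and starts the autophagosome. Of its 6 genes, related kinases included, 4 were marked. Ulk1, the kinase itself, had folds of 5.31 in list 1 and 3.91 in list 2, and Atg13, the adaptor that binds it, had 5.67 and 3.54. Atg101, a small partner of Atg13, had 4.04 and 2.33. The related kinase Ulk2 had the lowest list 2 fold of all marked members, 1.63, with 2.83 in list 1. Ulk3 had a peak in list 2 only, with a fold of 1.98, and Ulk4, a pseudokinase, had none at its span ends. In list 2 the marked genes of the complex ran from the 54.7 percentile of marked genes (Ulk1) to the 0.365 percentile (Ulk2). The Ulk2 peak there had a −log10 q of 0.362, and the Ulk3 peak one of 0.0507. In list 1 they ran from the 74.7 percentile (Atg13) to the 20.4 percentile (Ulk2).

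The lipid kinase complex makes the phosphoinositide that recruits later factors. Both of its genes under the symbol rule were marked near the middle or top of each list. Becn1, its scaffold, had folds of 5.72 and 7.39, and its list 2 peak stood at the 92.7 percentile of marked genes. Atg14, which directs the complex to autophagy, had 4.10 and 6.43. In both genes the summit lay within 11 bp of a span end in both lists. Outside the symbol rule, the kinase gene Pik3c3 had no gene-end peak in either list, and Pik3r4 had 6.67 and 4.25.

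Among the genes that enlarge the membrane, 5 of 6 were marked. Atg2b, a lipid transfer protein, had folds of 6.85 and 9.03 at chr12:105684275-105685672 in list 1, and the other lipid transfer gene, Atg2a, had a peak in list 2 only, with a fold of 3.38. The lipid scramblase gene Atg9a had 5.14 and 3.14. Its tissue-limited relative Atg9b had 4.07 and 3.56, but that peak lay 456 bp beyond the far end of the gene, within reach of an end of Nos3, the endothelial nitric oxide synthase gene, and no peak lay at the Atg9b start. The phosphoinositide readers Wipi1 and Wipi2 had 3.50 and 2.49, and 2.35 and 2.62.

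The conjugation machinery works like the ubiquitin system and was marked in 9 of 10 members. Atg16l1, the scaffold that places the conjugation enzyme on the membrane, had 5.67 in list 1 and 10.8 in list 2, the highest list 2 fold of any member. Atg10, an E2-like enzyme, had 7.56 and 5.80, and Atg3, the E2-like enzyme of the Atg8 proteins, had 5.14 and 5.41. The E1-like enzyme gene Atg7 had 3.03 and 5.32, and Atg5 and Atg12, whose products are joined to each other, had 3.08 and 4.92, and 4.56 and 2.71. The proteases that prime and recycle the Atg8 proteins differed: Atg4b had 5.54 and 3.27, Atg4d 2.55 and 2.53, and Atg4c no peak at its span ends. The Atg4d peak in list 2 had a −log10 q of 1.26. Atg4c did have a peak inside its span, at chr4:99193877-99194637 in both lists, with folds of 8.84 and 6.63 and its summit 29 bp before the transcript start that RefSeq lists. Atg16l2, the tissue-limited relative of Atg16l1, was marked over its own start with 4.09 and 7.05. It was thus the only tissue-limited member with a summit within 200 bp of a listed start.

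All 5 genes of the Atg8 proteins, the tags that coat the autophagosome and hold cargo, were marked. Gabarap had 9.13 and 5.44, Gabarapl1 had 6.20 and 4.11, and Map1lc3b had 3.48 and 5.08. The other family members, Map1lc3a and Gabarapl2, had 4.31 and 3.31, and 3.70 and 2.06. In list 2 the Gabarapl2 peak had a −log10 q of only 0.738. Sqstm1, which encodes the cargo receptor p62, had 10.2 and 6.91, and Tfeb, the transcription factor of the lysosome genes, had 6.94 and 5.27. For both genes the strongest peak was not the one at the start, as described below.

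The lysosomal membrane glycoprotein genes divided by tissue. Lamp1 was marked, and Lamp3 and Lamp5, of lung epithelium and of neurons, had their nearest peaks 384 and 278 kb away in list 1 and 50.7 and 199.6 kb away in list 2. Lamp1 had low folds of 2.02 and 3.25 (the 4.56 and 35.7 percentiles of marked genes), but its peaks were among the more certain ones by the authors' own statistic, with −log10 p of 55.3 and 83.3. Fold and −log10 p thus ranked this gene differently, and the background counts behind them were not analysed here.

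Cathepsins, the proteases of the lysosome, were marked in 6 of 18 members. Of the 7 broadly expressed ones 5 were marked: the carboxypeptidase gene Ctsa (7.10 and 6.91), the cysteine protease genes Ctsl (7.17 and 3.54), Ctsb (4.75 and 4.07) and Ctsf (2.23 and 4.82), and the aspartic protease gene Ctsd (4.33 and 3.70). Ctso had a peak in list 2 only, with a fold of 3.53 at a −log10 p of 3.15, and Ctsz had none, its nearest peaks lying 11.5 kb and 3.49 kb away. None of the 9 tissue-limited cathepsins had a peak in either list. These were Ctse, Ctsg, Ctsk, Ctss and Ctsw, known from stomach, neutrophils, osteoclasts, antigen-presenting cells and cytotoxic lymphocytes, and the placental Ctsj, Ctsm, Ctsq and Ctsr. The mixed members Ctsh and Ctsc had folds of 5.04 and 2.57, and a peak in list 2 only of 3.16. Their list 2 peaks had a −log10 q of 0.611 and 0.730.

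The V-ATPase has a membrane sector (V0) that carries protons and a cytosolic sector (V1) that burns ATP, and several of its subunits exist as a general and a tissue form. In V0, 5 of 6 broadly expressed and 0 of 2 tissue-limited genes were marked. Atp6v0a1 had folds of 5.80 and 3.64, Atp6v0d1 had 3.92 and 4.89 and Atp6v0e had 4.83 and 3.83. The proton ring genes Atp6v0b and Atp6v0c had 2.40 and 4.28, and 3.61 and 2.87. The kidney form Atp6v0a4 and the osteoclast form Atp6v0d2 had no peak, nor had the mixed Atp6v0e2. The broadly expressed Atp6v0a2 also had none, and its nearest peaks, 76.0 and 49.9 kb away, lay at other genes.

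In V1 all 8 broadly expressed genes and 1 of 5 tissue-limited ones were marked. Atp6v1d, of the rotor shaft, had folds of 5.25 and 8.52, Atp6v1a, the catalytic subunit, 6.26 and 5.56, and Atp6v1h, a regulatory subunit, 6.80 and 4.78. The stator and nucleotide-binding genes Atp6v1b2, Atp6v1e1, Atp6v1g1 and Atp6v1c1 had 5.13 and 4.85, 4.52 and 5.59, 3.10 and 6.44, and 3.68 and 3.94. Atp6v1f, of the rotor, had 5.41 and 3.26, and no peak touched Atp6v1fnb beside it. The tissue forms of the same subunits, Atp6v1b1, Atp6v1c2, Atp6v1e2 and Atp6v1g3, had none. The brain form Atp6v1g2 had 5.80 and 3.16, with a summit 381 bp and 376 bp before a listed start and near an end of Nfkbil1. For each subunit with both forms here (a, d, B, C, E and G), a general form (Atp6v0a1, Atp6v0d1, Atp6v1b2, Atp6v1c1, Atp6v1e1 or Atp6v1g1) was marked, while the other general form of subunit a, Atp6v0a2, was not. Atp6v1g2 was the single tissue form that was marked.

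Where transcript starts were listed, the peaks sat on them. RefSeq promoters were found for 61 of the 75 members. A peak of both lists lay within 1000 bp of a listed start in 38 of the 61 (62.3%), where 42.2% of all genes with a listed start (6943 of 16457) had one. The shares were 35 of 40 for the broadly expressed and 2 of 17 for the tissue-limited members. The summit lay 15.5 bp (list 1) and 20.5 bp (list 2) before the start at the median, and within 200 bp of it in 81.6% of these members in both lists, where all genes had 72.2% and 72.9%. The largest distances were those of Atp6v0a1, the mixed Ulk4 and Tfeb. At Atp6v0a1 the summit lay 827 bp before the listed start in both lists. That start is inside the gene span, and so was the summit. At Ulk4 the summits lay 527 and 517 bp before a start inside its span, and at Tfeb 408 bp after a start.

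**Figure D3:**
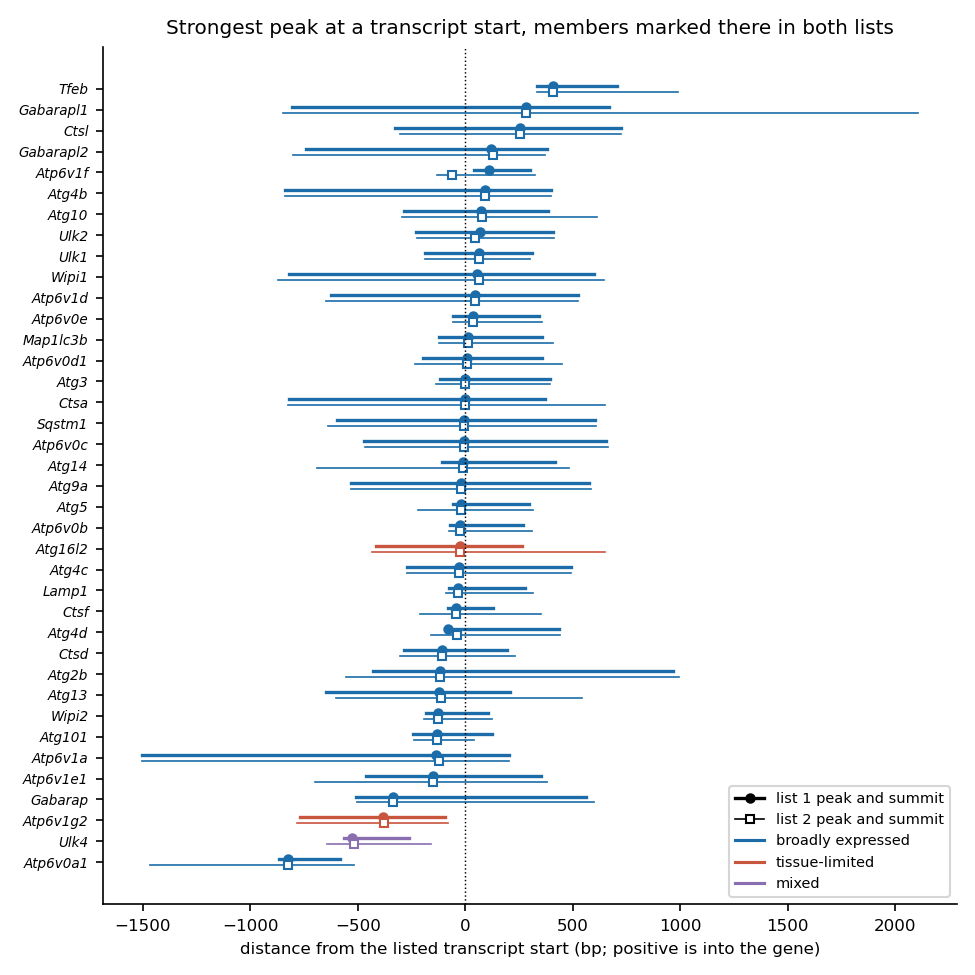
Extent (lines) and summit (circles for list 1, squares for list 2) of the strongest peak at a transcript start, as distance in bp from the listed start (horizontal axis, positive into the gene), for the 38 members marked there in both lists (vertical axis). Most summits lie within 200 bp of the start, with Atp6v0a1 at 827 bp before it and Tfeb at 408 bp after it.

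Few genes had a peak at the far end, and in the members it held some of the strongest peaks. Over all genes 4.74% (689 of 14542 longer than 2000 bp) had a peak of both lists within 1000 bp of the end opposite the start, and of the members 8 of 60 (13.3%) had one. At Sqstm1 the folds of 10.2 and 6.91 belong to a peak 668 bp inside the far end (chr11:50200547-50201001 in list 1), which reaches the end window of Mrnip, while the peak over the Sqstm1 start had 2.62 and 4.10. At Tfeb the values of 6.94 and 5.27 lie 1059 and 1002 bp beyond the far end, and the peak by the start had 3.78 and 2.77. At Atp6v0a1 the far end had 5.80 and 3.64 and the start 3.70 and 3.41. Gabarap, Atg9a and Atp6v0c had the stronger peak at the start in both lists and a weaker one at the far end, near ends of Phf23, Abcb6 and Amdhd2.

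At Ctsd the lists named different peaks as the strongest. The far-end peak had 4.33 in list 1 and 2.81 in list 2, and the start peak 3.15 and 3.70. Ctsd was the only marked member whose strongest peaks did not overlap between the lists. For Atg7 the marked end was that of the gene span, 28010 bp upstream of the only start in the promoter table, and the listed start had no peak within 1000 bp. Close neighbours were as common as elsewhere: the strongest peak of 15 of the 48 marked members (31.2%) reached the end of another protein-coding gene, and 31.0% of all marked genes shared theirs in this way. Among these are Ctsa with Neurl2, Atp6v1a with Naa50, Atp6v1d with Eif2s1 and Gabarap with Ctdnep1, and for them the peak cannot be given to 1 gene.

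The 10 members with a shared peak away from both ends were Atg13, Atg4c, Ulk1, Atg7, Ctsd, Ulk4, Sqstm1, Atp6v0a1, Wipi1 and Tfeb. The highest list 1 fold lay deep in Tfeb at chr17:47762663-47763364, with 10.7 there and 6.99 in list 2, above those of both Tfeb ends. The highest list 2 fold was in Atp6v0a1, whose inside peak had 6.80 and 8.17 at chr11:101058812-101059439, 4527 bp from its far end, and Sqstm1 had one of 6.46 and 3.19. Atg13 had 2, the one with the higher list 1 fold having 7.34 and 4.66, 11331 bp after its start. Ulk1 and Wipi1 had one 1721 and 2179 bp after the start, with 5.38 and 5.02, and 5.09 and 3.99. Whether these stretches act on the genes that contain them was not tested.

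Although the median width was that of other marked genes, the share of wide peaks was larger. Of the 48 marked members, 13 (27.1%) had a strongest peak of at least 1000 bp in both lists, and 13.7% of all marked genes did. The widest by the narrower of the pair were Atp6v1a (1707 bp), Gabarapl1 (1473 bp), Wipi1 (1423 bp), Atg2b (1398 bp) and Atp6v0a1 (1391 bp). The Gabarapl1 peak spread to 2956 bp in list 2, and those of Atp6v1a and Atg2b reach an end of the neighbouring genes Naa50 and Gskip.

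Broadly expressed and tissue-limited members differed in promoter composition. A promoter of 300 bases (250 before the start and 50 after) was called CpG-rich at a G + C content of at least 55% with at least 0.65 of the CG count that its base composition predicts. Of all 20085 promoters listed by RefSeq, 39.2% were CpG-rich, over those of broadly expressed members 60.9% (28 of 46) and over those of tissue-limited members 5.26% (1 of 19). The median ratio of observed to predicted CG was 0.775 and 0.155 in these classes, as in the Map1lc3b and Ctsj sequences above. Split by the mark, 26 of 44 promoters of marked members (59.1%) and 5 of 25 of the other members were CpG-rich, and over all genes the shares were 62.1% and 22.8%.

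By these limits, composition and breadth did not sort the genes in the same way. Of all genes with a CpG-rich promoter 66.1% (4620 of 6994) were marked, and of those with a listed promoter but none CpG-rich 22.3% (2112 of 9463). Broadly expressed members were marked in 25 of 27 genes with a CpG-rich promoter and in 10 of 13 without one. The 10 are Gabarap, Gabarapl1, Ctsa, Ctsl, Atp6v1a, Atg13, Atg14, Atg7, Atp6v0a1 and Atp6v1e1. Of these, Atg13, Atp6v1e1, Gabarapl1 and Atp6v1a met the limit for the CG ratio and missed only that for G + C content. Gabarap, Ctsa, Ctsl and Atg14 fell below the limit for the ratio. The listed start of Atg7 had no peak, and at Atp6v0a1 the summit lay 827 bp before the listed start. The count of 10 thus depends on the G + C limit and on which starts are listed. Tissue-limited members without a CpG-rich promoter were marked in 3 of 16 genes (18.8%), and the single one with such a promoter, Atp6v1c2, was not marked.

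**Figure D4:**
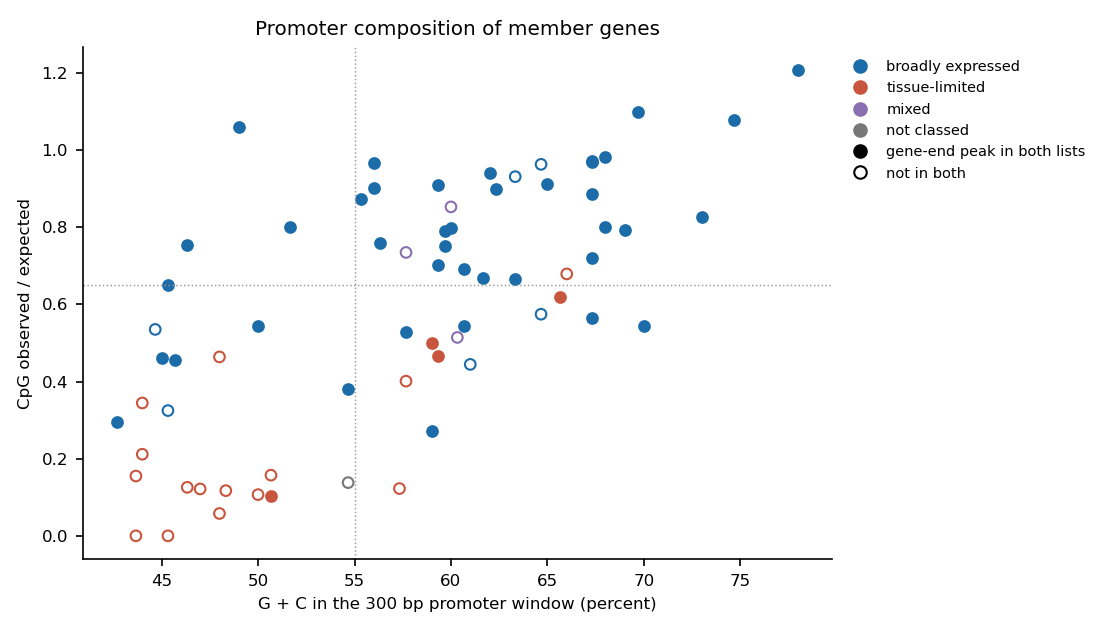
Observed over predicted CG count (vertical axis, ratio) against G + C content (horizontal axis, percent) of the 69 listed 300-base promoters of 61 members, by breadth class (colour) and by whether the gene was marked in both lists (filled) or not (open). Dotted lines are the limits of 55% and 0.65 for a CpG-rich promoter, and the tissue-limited promoters gather at low values on both axes, with a median ratio of 0.155.

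CACGTG, searched on both strands (it reads the same on each), was found in 18.8% of the member promoters (13 of 69) and in 7.89% of all promoters. All 13 belong to broadly expressed members, and 0 of the 19 tissue-limited promoters held it. It was in 11.7% of all CpG-rich promoters and in 10.9% of the promoters of all marked genes. In the broadly expressed cathepsin, V-ATPase and Lamp genes it was in 9 of 19 promoters (47.4%). At least 2 sites were found in 7.25% of member promoters (Lamp1, Ctsd, Ctsa, Atp6v0b and Atg3) and in 0.762% of all promoters, with the 4 of Lamp1 the highest number.

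Most of these sites lay close to a summit. Of the 20 sites in the 13 promoters, 19 were inside a peak of both lists, at a median of 13 bp from the summit in each list. The 4 Lamp1 sites were 6 to 27 bp from the summit, and those of Atp6v0d1 and Atg5 were 7 bp from it in both lists. Further off were the Ctsl site at 487 bp, the upstream Ctsd site at 134 bp and the Atg3 sites at 95 and 72 bp, in both lists. The site outside any peak was that of Atg7, at the listed start that had none. The search covered only 250 bases before and 50 bases after a start, and the summits of most marked genes lie within 200 bp of one, as given above, so short distances are not particular to these sites.

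Among the other motifs, searched on both strands, TCACGTG, which contains CACGTG and has the flanking T of the lysosomal element, was found in 14.5% of member promoters and 4.36% of all. GGGCGG, the core bound by Sp1-type factors, was in 56.5% and 47.0%, and CCGGAA, the core of the Ets family, in 23.2% and 19.1%. A match is a run of letters and not shown here to be bound.

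The unmarked placental cathepsins lie in 1 block of chromosome 13. Ctsj, Ctsq, Ctsr and Ctsm, with 5 relatives outside the symbol rule (Ctsll3, Cts3, Cts6, Cts7 and Cts8), span 772 kb at chr13:60798250-61570170. No peak of either list fell in this stretch, where chromosome 13 as a whole held 8.90 and 15.3 peaks per Mb. The nearest peaks lay 116 kb before it in both lists, and 897 kb (list 1) and 560 kb (list 2) after it. Ctsl, the broadly expressed gene of this branch of the family, lies 2792 kb further along and had its peak at chr13:64369795-64370849 in list 1.

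**Figure D5:**
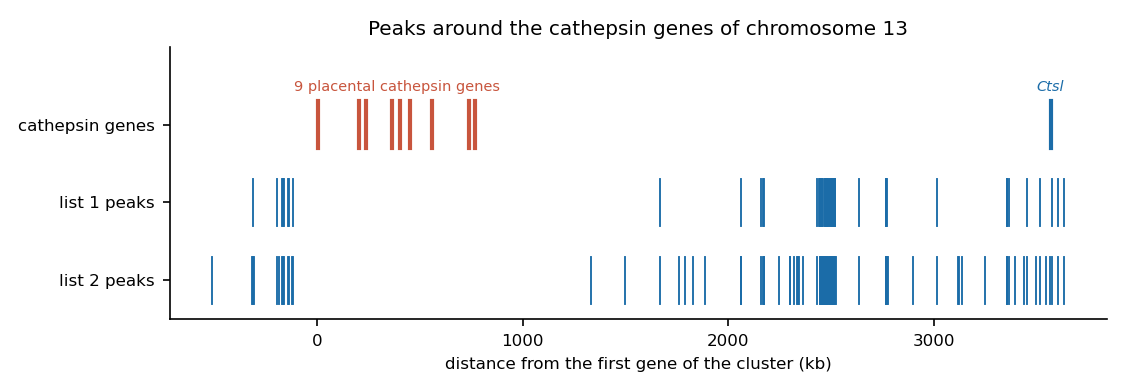
Cathepsin genes (top row) and peaks of list 1 and list 2 (lower rows) on a stretch of chromosome 13, by distance in kb from the first gene of the placental cluster (horizontal axis). No peak falls among the 9 placental genes, and peaks return 897 kb (list 1) and 560 kb (list 2) after them and at Ctsl.

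The tissue-limited members outside this block varied in their distance from the nearest peak. In list 1 and list 2 it was 5.97 and 4.23 kb for Ctsw, 13.5 and 6.07 kb for Atp6v1e2, and 199.8 and 5.61 kb for Ctsg. For Atp6v1g3 it was 328 kb in both lists. Ctsk and Ctss, neighbours on chromosome 3, were 64.4 and 32.2 kb in list 2 from peaks at Arnt and at Golph3l and Hormad1.

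Most genes of the same pathway that the symbol rule leaves out were also marked. Of 23 further autophagy genes 20 were marked, with Uvrag, a partner of Becn1, at 6.13 and 8.89, Rubcn, an inhibitor of the same complex, at 6.43 and 4.62, and the cargo receptor gene Nbr1 at 6.18 and 4.54. Of 25 further lysosome genes 17 were marked, among them Psap (6.73 and 7.79) and Hexa (6.63 and 5.39), which serve the breakdown of sphingolipids. Of 17 genes of nutrient signalling at the lysosome 15 were marked, led by the GTPase gene Rragd (8.25 and 8.21) and its regulator Flcn (7.10 and 4.24). Pik3c3, Tsc2 and Lipa were among those with no gene-end peak in either list.

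On the X chromosome, outside the rule and every count, Lamp2 had folds of 4.08 and 3.91 at its start. Tfe3 had a peak in list 2 only, with 2.17. Atg4a had no peak at its span ends but, like Atg4c, a peak of both lists inside its span, within 1000 bp of a listed start.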

How the data were processed

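H3R17me2a was profiled by ChIP-seq in 2 samples of wild-type heart that form 1 group, per the labels. The submitters' processing notes name FastQC, Bowtie2 and mm10. No source used here names the peak caller, control or filters, and the read depth is unknown. Each deposited list has 10 columns without a header, read as the narrow peak layout. The deposited fold was read as a linear ratio over background at the summit, and the p-values and q-values as −log10. The score column deposited is the −log10 p times 10. The lowest −log10 p is 5.0 in list 1 and 2.01 in list 2, where 38.1% of peaks have a q above 0.05. These are the authors' values, used to describe peaks within a list.

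Gene spans and promoters came from RefSeq tables (GRCm38.p6), with 1-based coordinates. A peak and a window that shared 1 bp or more overlapped. A peak counted as inside a gene when it lay in the span and outside both end windows. All 20665 genes were scored with Python 3.11.15, pandas 2.3.3 and NumPy 2.4.6, and the code was tested on simulated data. Promoters were matched by gene identifier. Genes are not replicates and there is 1 group, so no test was run.

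Members, breadth classes, roles and the other lists were chosen with earlier results of these data known. Named with values are, in each role, up to 3 members with the lowest summed rank of fold, every member not marked in both lists, every tissue-limited or mixed member that was, the 5 widest, those with an inside peak and up to 3 genes of each other list. Some genes that this rule selects are not reported here, and further members were named after their values were seen. In all 9 alternatives were planned, and listed transcript starts in place of span ends were added after seeing the data.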

Additional observations from a re-analysis of the deposited data

How the results depend on the processing

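No paired analysis was possible because both samples belong to 1 group. Among the upper 50% of peaks by fold, 18 members, 18 broadly expressed and 0 tissue-limited, were marked, and 22 had a shared peak in the body. The other planned settings left 44 to 52 members marked, 41 to 47 of them broadly expressed and 2 or 3 tissue-limited. The stricter −log10 p or q and a list 2 trimmed to the length of list 1 each lost Atg4d, Ctsh, Gabarapl2 and Ulk2, and a window of 500 bp or an overlap of 50% lost Atp6v1g2. Leaving out 1 list in turn gave 48 to 52 members, 44 to 47 broadly expressed, 3 tissue-limited and 49 to 54 with a body peak. Of 190 fold values recomputed with other windows, 179 came from the same peak. With a window of 500 bp the folds of Tfeb were 2.13 and 1.69 and that of Ctsb in list 1 was 3.04, and with 3000 bp that of Atp6v1g1 in list 1 was 6.52 and those of Atg101 and Wipi1 in list 2 were 3.57 and 4.03. By listed starts 38 of 61 members were marked. Read depth was not known, so a gene without a peak may lie below what these lists could detect.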
